A study of Homo sapiens with 22 samples.

Results

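The genes described here are 10 members of the ETS family of transcription factors, FLI1, ERG, ETS1, ETS2, ETV1, ETV4, ETV5, ELF3, EHF and ELK3, out of 36859 genes measured in all 22 RNA-seq libraries. They were chosen by name, with earlier results of these libraries already known, and no threshold on any value was part of that choice. All contrasts between groups are therefore treated as used in the choice, and the members' values are given as a description with no p-value. All 10 members were present among the genes measured, and 9 of them passed the filter on low counts; ERG did not.

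The cells were RPTEC, human renal proximal tubule epithelial cells immortalized with hTERT. Groups in 2% serum were untreated wild-type (WT) cells, WT cells given TGF-β at 10 ng/ml for 72 h, the SETD2 knockout (KO) clones KO1 and KO2 made with CRISPR/Cas9, and the libraries labelled KO2 rescue. Groups in 10% serum were the rescue clones Rescue1 and Rescue2, carrying full-length SETD2 from a lentivirus, and WT cells transduced with eGFP or with 1 of the transcription factors SOX2, OCT2 and PRRX1. Each of the 11 groups had 2 libraries. KO1, KO2, Rescue1 and Rescue2 are 1 clone each, whereas the transduced WT cells were drug-selected pools. The labels do not say whether the libraries labelled KO2 rescue came from 1 clone. Serum and lentiviral transduction cannot be told apart when a group in 10% serum is compared with one in 2% serum. No source states that the 2 libraries of a group came from separate cultures, so the spread between them may be technical. The libraries held 11674491 to 16758645 normalized counts, and about 7900000 to 18400000 reads as approximated from the smallest steps between values.

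ETS factors share a DNA-binding domain that recognizes a GGAA core, and the members of the family differ in their protein partners, in their regulation by kinases and in the tissues that use them. FLI1 and ERG are close relatives that maintain endothelial and blood cells. ETV1, ETV4 and ETV5 form the PEA3 subfamily, whose transcription follows signalling through the ERK kinase pathway, and ELF3 and EHF are among the ETS factors of epithelia.

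SETD2 mRNA checked the labels first. SETD2 read 1852 and 2061 normalized counts in WT cells, 1955 and 2021 in TGF-β-treated cells, 1046 and 1130 in KO1, 1050 and 1052 in KO2, and 10240, 10369, 10445 and 9764 in the 4 rescue libraries. The libraries labelled KO2 rescue had 834 and 820, below both KO clones, and thus go against their label at the mRNA level. They are called by that label throughout and no direction of SETD2 restoration is drawn from them. Among the ectopic factors, PRRX1 was at 395 and 404 in its own line and at 0 in both eGFP libraries, and POU2F2, the gene of OCT2, was at 1251 and 1121 in its line against 279 and 357 with eGFP. SOX2 mRNA was not analysed here. The renal epithelial genes PAX8, PAX2, KRT8 and KRT18 each had a mean of at least 10 normalized counts in every group. KRT8 was called lower in KO1, from a mean of 16000 in WT to 4260 (limma, log2 difference -1.92 ± 0.07, adjusted p = 1.1e-11). PAX8 was called higher there (1.13 ± 0.14, adjusted p = 1.4e-05), with 2322 and 3743 in the WT libraries. Neither was called in KO2 against WT (-0.66 and 0.78). Of 9 proximal tubule genes, 5 had a mean of at least 10 in untreated WT, namely GGT1 (779), MME (165), AQP1 (64.2), ANPEP (29.1) and CUBN (24.2). MME, ANPEP and CUBN were called higher in both KO clones, and of these calls only that of MME in KO1 (limma, log2 difference 2.29 ± 0.48, adjusted p = 0.0015) held with each single library left out in turn. The transporter SLC22A6 was at 0 in every library, and the endocytic receptor LRP2 was at 0 in every library except those of KO2, at 2.29 and 0.553. The 2 untreated WT libraries were unlike each other in some genes. A list of 6 fibroblast genes summed to 12400 in the one and to 829 in the other, and the keratin KRT7 was at 787 and 78. At low counts the KO1 libraries were the least alike. Over genes of low mean count, their median absolute log2 gap was 0.924, against 0.487 to 0.64 in the other groups. The second KO1 library had 14082 genes above 0, the fewest of all libraries.

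FLI1 (ENSG00000151702, GRCh38, chromosome 11, 128686535 to 128813267, plus strand) was at 0 in both untreated WT libraries and in both TGF-β-treated WT libraries. In KO1 it was at 267 and 157 normalized counts, and in KO2 at 426 and 363. The libraries labelled KO2 rescue had 620 and 507. In 2% serum, the 4 libraries of the KO clones and the 2 labelled KO2 rescue thus held FLI1 mRNA, and the 4 WT libraries were at 0. With the floor set at 3 reads per library, 2.67 normalized counts in WT, the FLI1 level was at least 79.5-fold that of WT in KO1 and at least 148-fold in KO2. Both TGF-β and WT were at the floor, which allows no fold between them.

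FLI1 was also present in WT cells once they had been transduced and kept in 10% serum. The eGFP line had 155 and 154, the OCT2 line 167 and 161, the PRRX1 line 188 and 165, and the SOX2 line 216 and 227. WT cells with eGFP were at least 57.9-fold above untreated WT. FLI1 mRNA was therefore not restricted to SETD2 KO cells among these libraries, and its range in transduced WT, 154 to 227, overlapped with that of KO1.

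The highest levels came from the rescue clones, with 1184 and 1094 in Rescue1 and 592 and 692 in Rescue2. KO2 was taken as their parent only from sample names in the study's supplement, and the labels of the rescue libraries name no parent. The 4 rescue libraries together were 2.26-fold above KO2, with a log2 difference of 1.12 ± 0.21 (SE), and 5.76-fold above WT eGFP, with a log2 difference of 2.46 ± 0.21. The difference from KO2 was 1.53 for Rescue1 alone and 0.70 for Rescue2 alone, and the latter is under the threshold of 1. Serum differed between the rescue clones and KO2 but not between the rescue clones and WT eGFP. In the order of group means, Rescue1 stood above all others, Rescue2 (642 ± 70.6, SD, n = 2) and the libraries labelled KO2 rescue (563 ± 80.2) overlapped, and KO2 (394 ± 44.6) stood above the SOX2 line (221 ± 7.49). KO1 (212 ± 77.6) overlapped with its neighbours in that order.

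**Figure D1:**
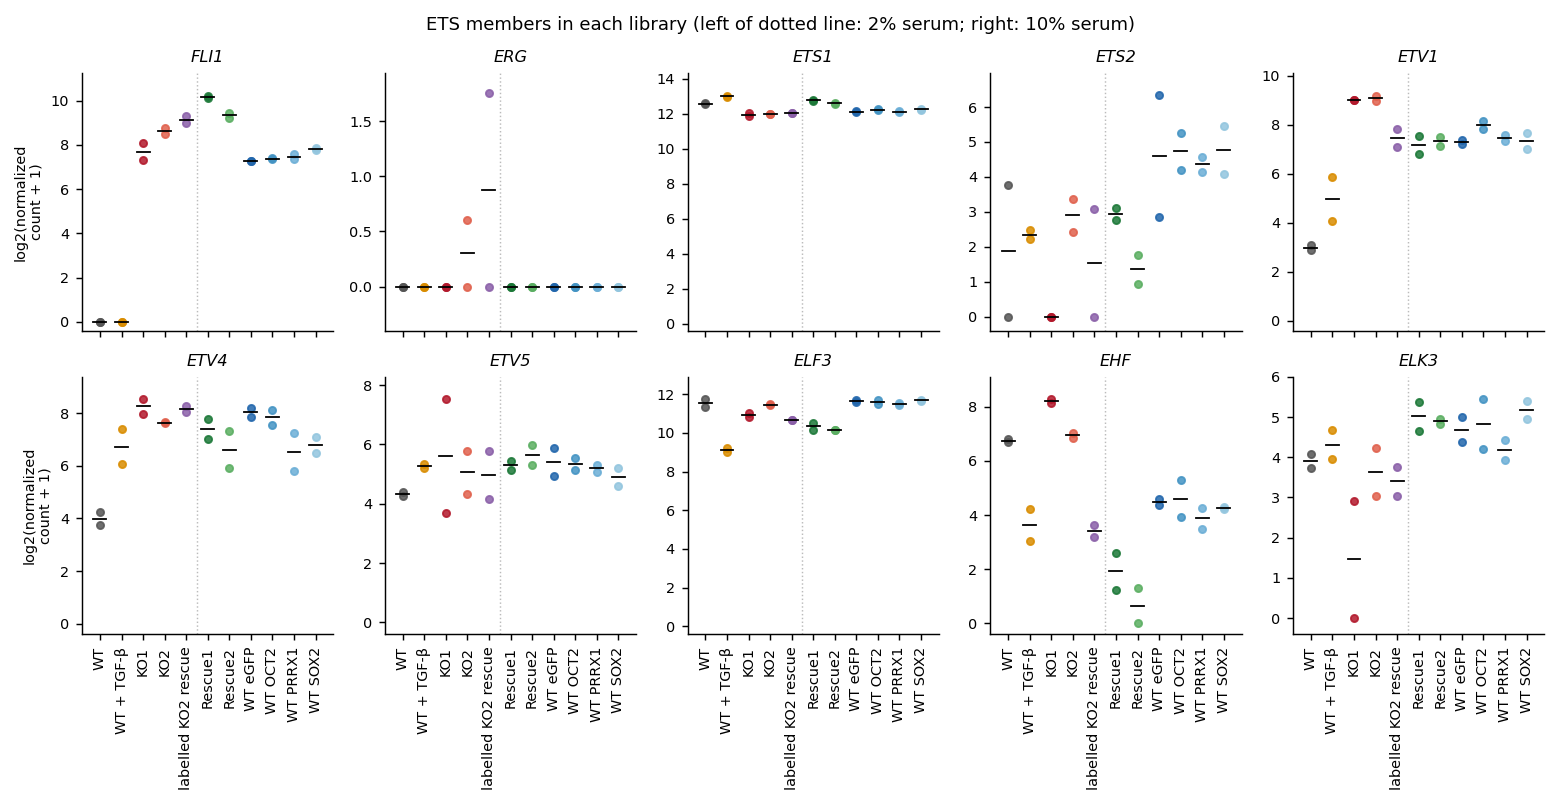
Each point is 1 library, each bar the mean of the 2 libraries of a group, and the vertical axes give log2(normalized count + 1) on a scale of their own for each gene. FLI1 is at 0 in the 4 WT libraries in 2% serum and between 154 and 1184 normalized counts in the other 18, while ERG never exceeds 2.38.

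ERG (ENSG00000157554), the closest relative of FLI1 among the members, was at 0 in 20 of 22 libraries and reached 0.523 in 1 KO2 library and 2.38 in 1 of those labelled KO2 rescue, so it was not detectable at this depth. On chromosome 11, FLI1 lies between ETS1, 99.0 kb away on the side of lower coordinates, and the potassium channel gene KCNJ1, 23.0 kb away on the other side. ETS1, the broadly expressed founder of the family, had the highest level per length of all ETS genes in untreated WT, at 1200 normalized counts per kb of transcript, against 55.5 for FLI1 in KO1, 103 in KO2 and 298 in Rescue1. ETS1 was at 6384 and 5986 normalized counts in WT libraries and at 8085 and 8331 in those given TGF-β. KO1 had 3746 and 4232, and KO2 had 4094 and 4023. These groups did not overlap with WT, yet every log2 difference was under 1, at -0.63 ± 0.06 for KO1, -0.61 ± 0.06 for KO2 and 0.41 ± 0.06 for TGF-β treatment. In the rescue clones ETS1 was at 6139 to 7121, all above KO2. KCNJ1 stayed between 0 and 19.6 normalized counts in all 22 libraries. ETS1 and KCNJ1 thus did not follow FLI1 in level from WT to the KO clones: KCNJ1 had means of 5.69 in KO1 and 16.3 in KO2 against 8.30 in WT, and fell with TGF-β to 0 (log2 difference -3.17, adjusted p = 0.021), a call that was lost without any 1 of the 4 libraries (-3.53 to -2.81).

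The genes tested whose group means were most like those of FLI1 over the 11 groups were ANK1 (r = 0.985), CNRIP1 (r = 0.979), TM4SF19 (r = 0.968), TCF4 (r = 0.963) and RIN2 (r = 0.962). These Pearson correlations are a description of 11 means that share serum, vector and clone. FLI1 was at 0 in the WT and TGF-β groups, so r rests largely on the split between those groups and the rest. ANK1, which encodes an ankyrin of the membrane skeleton, had a mean of 5.99 normalized counts in WT libraries, 176 in KO1, 231 in KO2 and 201 in Rescue1. TCF4, an E-box transcription factor, was at 125 with TGF-β, 497 in KO1, 491 in KO2 and 500 in WT eGFP.

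Endothelial and blood cell genes were examined next, since FLI1 and ERG act in those cells and since several of the genes are known targets. Of 15 such genes, 10 were tested. Against WT, 2 were higher and 2 lower in KO1, and 3 were higher and 1 lower in KO2, with a median log2 difference of -0.01 in KO1 and 1.27 in KO2, beside -0.00 and 0.00 over all genes tested. The shares of all genes called against WT were 25.0% in KO1, 16.3% in KO2, 12.7% in WT eGFP and 7.84% with TGF-β. KDR, the receptor for VEGF, rose at least 42.3-fold in KO1 (limma, adjusted p = 1.4e-05) and at least 50.9-fold in KO2 (adjusted p = 1.5e-05), from 0.770 and 0 in WT to 123 and 103 in KO1 and 145 and 126 in KO2. It was at 0 in both eGFP libraries and between 1.62 and 42.0 in the rescue libraries. The stem cell and endothelial antigen CD34 rose in KO2, from a mean of 9.36 to 61.3 (log2 difference 2.58 ± 0.48, adjusted p = 7.9e-04), and the actin regulator of leukocytes CORO1A fell from 95.0 to 10.3 in KO1 (adjusted p = 5.3e-04) and to 11.4 in KO2 (adjusted p = 0.00453). In WT eGFP against WT, 1 of the 10 was higher, CD34 at 36.9 and 25.4 (log2 difference 1.61 ± 0.48, adjusted p = 0.0226), and 1 lower, CORO1A with a mean of 9.98 (-3.15 ± 0.70, adjusted p = 0.00344), with a median of 0.18 over the list. With TGF-β 0 were higher and 1 lower, CD34 at 3.91 and 1.68 (-1.52 ± 0.48, adjusted p = 0.042), with a median of 0.10. The CD34 call in WT eGFP was lost without either WT library or the first eGFP library (1.35 to 1.61), and that with TGF-β without either WT library or the second TGF-β library (-1.52 to -1.08). The 10 endothelial markers summed to 12.1 and 40.7 in WT, 156 and 206 in KO1, 194 and 207 in KO2, 119 and 176 in Rescue1, 49.0 and 66.4 in Rescue2, and 5.49 and 24.7 in WT eGFP. Of the 10, 1 had a mean of at least 10 in WT, 3 in KO1 and 4 in KO2. KDR was the most abundant of them in both KO clones, and CDH5, EMCN and CLDN5 were at 0 in both clones. ESAM, like KDR, was higher in both clones than in WT, at 5.63 and 0 in WT, 28.9 and 54.1 in KO1 and 32.2 and 30.9 in KO2. It was called higher in KO1 but not in KO2. CDH5 was the most abundant in Rescue1, at 68.7 and 83.8, and had 5.75 and 23.6 in Rescue2. In the rescue clones, 2 of the 10 tested genes were higher (CDH5 and CORO1A) and 2 lower (KDR and ESAM) than in KO2 (median log2 difference -0.27). Against WT eGFP, 3 were higher (TIE1, KDR and CORO1A) and 1 lower (median 2.11). The medians over all genes were -0.03 and 0.00, and 17.5% and 13.1% of all genes were called. CDH5 was at least 13.4-fold above KO2 (adjusted p = 0.00489), and Rescue2 alone was not called. TIE1, among the genes higher in KO2 (log2 difference 3.13), was no longer called there without either WT library, without the second KO2 library or with the replicate number as a block. Its call against WT eGFP was lost without any 1 of 5 libraries (2.05 to 3.35), and that of CORO1A against KO2 without either KO2 library and, against WT eGFP, without the second eGFP library (2.13). PECAM1 was at 0 in both KO2 libraries and at 0 and 25.1 in KO1, and the pan-leukocyte marker PTPRC stayed at or under 6.12 in the KO clones.

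ETV1 and ETV4 of the PEA3 subfamily were low in untreated WT and higher in every other group. Of the 10 members, 4 met the call thresholds in KO1 (FLI1, ETV1 and ETV4 higher, ELK3 lower), where 25.0% of all genes tested met them, and 3 did so in KO2 (FLI1, ETV1 and ETV4, all higher), where 16.3% of all genes did. Those thresholds were an adjusted p under 0.05 in limma's moderated test and an absolute log2 difference over 1, and nothing is read from the members' counts because the members were chosen with these contrasts known.

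ETV1 (ENSG00000006468, chromosome 7, 13891229 to 13991425, minus strand) was at 7.46 and 6.41 normalized counts in WT, 512 and 510 in KO1 and 495 and 578 in KO2. The KO clones thus stood 73.6-fold and 77.3-fold above WT, with log2 differences of 6.01 ± 0.45 and 6.08 ± 0.45, and the clones overlapped. TGF-β-treated WT had 56.6 and 15.8, between WT and all other groups, and its log2 difference from WT of 1.97 ± 0.45 no longer met the thresholds without the first TGF-β library (1.08). WT eGFP had 148 and 165, the 4 rescue libraries 110 to 186, and the libraries labelled KO2 rescue 226 and 135. The rescue clones were thus below KO2, by a log2 difference of -1.82 ± 0.39, and overlapped with transduced WT, which ranged from 129 to 284. The libraries labelled KO2 rescue, in 2% serum like KO2, differed from it by -1.61 ± 0.45, a difference that no longer met the thresholds without either KO2 library or without the second library of that label (-1.72 to -1.24).

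ETV4 (ENSG00000175832) was at 12.3 and 18.0 in WT libraries and at 169 and 65.6 after TGF-β. It was at 372 and 251 in KO1, 195 and 201 in KO2, and 295 and 233 in WT eGFP. The log2 difference from WT was 4.27 ± 0.55 for KO1, 3.65 ± 0.55 for KO2, 2.74 ± 0.55 for TGF-β and 4.05 ± 0.55 in WT eGFP. ETV4 in the rescue clones, at 59.6 to 220, overlapped with KO2, and with KO1 in its place the log2 difference was -1.25 and met the thresholds. ETV4 shares its locus with DHX8 on the opposite strand, a helicase gene that ranged from 1070 to 1960 over the libraries.

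ETV5 (ENSG00000244405) was at 20.1 and 18.1 in WT and at 11.9 and 185 in KO1. On the log2 scale that was the widest gap between the duplicates of any member in that clone. KO2 had 19.3 and 54.3, and WT eGFP 57.4 and 29.3. None of the log2 differences of ETV5 met the thresholds, and those from WT were 1.29 ± 0.92 in KO1 and 0.74 ± 0.92 in KO2. Without the first KO1 library, the difference of KO1 from WT was 3.22 and met them. ETV5 overlaps with DGKG on the same strand, and that gene ranged from 0 to 35.1 over the 22 libraries. DGKG was at 0 in the WT libraries in 2% serum and in the transduced WT lines, and at 3.35 to 11.5 in the rescue clones. Its part in the ETV5 values was not tested. For each of the 3 PEA3 genes the lowest group mean was that of untreated WT.

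Of the members with an entry in the RefSeq promoter table (6 of 10: ERG, ETS2, ETV1, ELF3, EHF and ELK3, 17 start sites in all; FLI1, ETS1, ETV4 and ETV5 had none), ETV1 had the largest differences. The 250 bases before its outermost start site are shown with each GGAA or TTCC, the ETS core on either strand, in capitals. They lie at chr7:13991426-13991675 on the minus strand of GRCh38.p14.
ETV1: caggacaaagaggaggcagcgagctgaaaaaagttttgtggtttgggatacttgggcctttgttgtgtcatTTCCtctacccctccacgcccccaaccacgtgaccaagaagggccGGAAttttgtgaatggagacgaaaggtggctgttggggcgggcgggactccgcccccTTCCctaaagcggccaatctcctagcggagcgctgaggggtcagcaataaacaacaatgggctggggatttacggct
The core occurred 3 times there, 1 of them within CCGGAA, a longer form of the motif that contains the core. Of all 35116 promoters of that length, 92.7% held GGAA or TTCC, with a median of 3 matches, and 14.5% held CCGGAA or TTCCGG. A match of letters is a description and not a bound site.

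**Figure D2:**
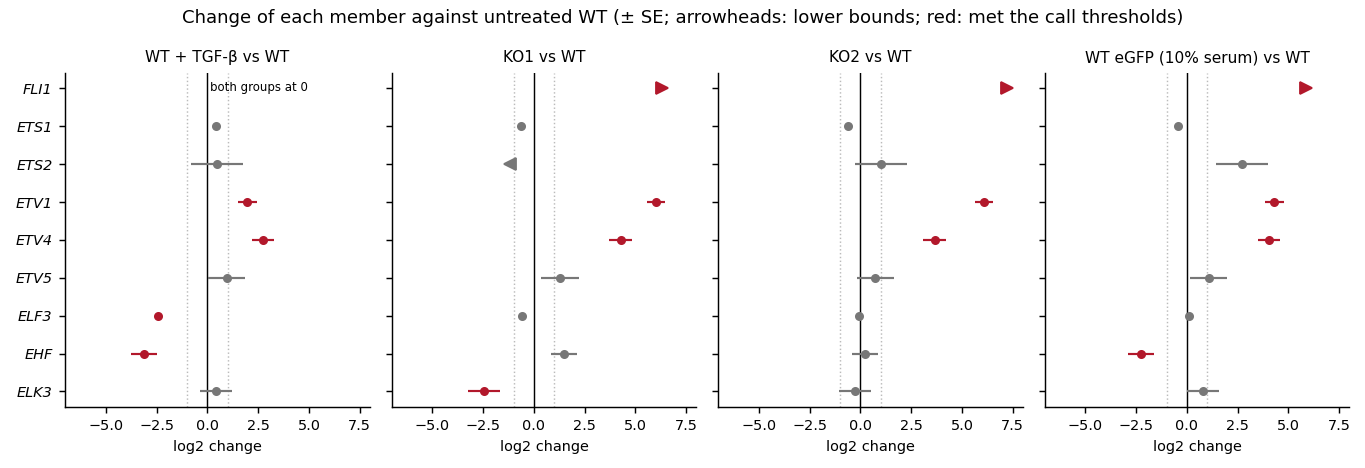
Log2 change of each tested member against untreated WT on the horizontal axes, with points and bars for the estimate ± SE and arrowheads for lower bounds where 1 group was at the floor. Red marks members that met the call thresholds, and FLI1, ETV1 and ETV4 are red in KO1, in KO2 and in WT eGFP.

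ERK signalling genes were compared with ETV1 and ETV4, since the PEA3 genes are known outputs of the same pathway. Of 15 listed output genes, 14 were tested. In KO1, 5 rose and 0 fell, where 25.0% of all genes were called. In KO2, 4 rose and 1 fell (16.3% of all genes). In WT eGFP against WT, 4 rose and 0 fell (12.7%), and with TGF-β 3 rose and 0 fell (7.84%). The medians of their log2 differences were 1.64, 1.25, 2.11 and 1.01, beside medians over all genes that rounded to 0. DUSP6, the phosphatase that acts on ERK, was at 10.8 and 18.1 in WT, 588 and 747 in KO1, 257 and 419 in KO2 and 196 and 259 in WT eGFP, with log2 differences from WT of 5.47 ± 0.41 (adjusted p = 5.6e-08), 4.46 ± 0.41 (adjusted p = 9.2e-07) and 3.92 ± 0.41 (adjusted p = 5.8e-06). PHLDA1 rose from 1327 ± 92.2 (SD, n = 2) in WT to 21229 ± 497 in KO1 and 10001 ± 837 in KO2 (limma, adjusted p = 3.2e-15 and 2.1e-13). SPRY4, a feedback inhibitor of the pathway, rose in KO1 (log2 difference 2.86 ± 0.27), KO2 (1.64 ± 0.27), WT eGFP (2.90 ± 0.27) and with TGF-β (2.28 ± 0.27). DUSP6 and PHLDA1 were not called with TGF-β, whereas ETV1 and ETV4 met the thresholds there.

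Regulators of ETS proteins were counted beside them. Of 11 tested regulators and partners out of 15 listed, 1 rose in KO1, 1 rose and 1 fell in KO2, 1 fell with TGF-β and 2 rose in WT eGFP. The shares of all genes called there were 25.0%, 16.3%, 7.84% and 12.7%. ATXN1L, a partner of the repressor CIC that holds PEA3 genes down, rose in both clones but from a mean of 3.64 to 17.9 and 21.1 only (adjusted p = 0.0196 and 0.0134), and neither call held without the second WT library (1.71 and 1.96) or without the second library of the clone (1.66 and 2.06). CIC itself was at 1417 and 1600 in WT, 1967 and 2725 in KO1 and 2341 and 1915 in KO2, with log2 differences of 0.62 and 0.49 that were under the threshold of 1. The AP-1 gene FOS, which pairs with JUN at sites beside ETS motifs, separated the transduced WT lines from everything else. It lay between 1460 and 2210 in those 8 libraries with a median of 1960, and at or below 22.3 in the other 14, among them the rescue clones that had been kept in 10% serum as well (rescue clones against WT eGFP, log2 difference -7.71 ± 0.98, adjusted p = 3.1e-05).

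**Figure D3:**
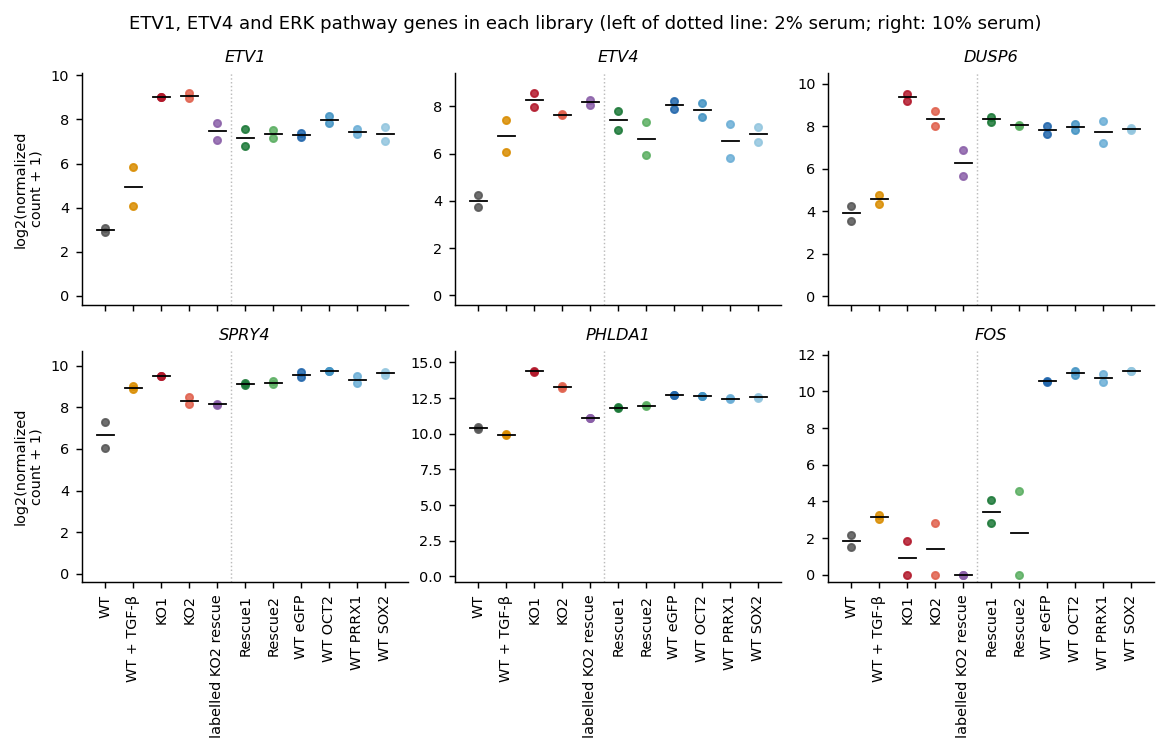
Points are libraries and bars group means of log2(normalized count + 1) for ETV1, ETV4 and 4 other genes, on a vertical scale of their own for each gene. ETV1, ETV4 and DUSP6 are lowest in untreated WT, and FOS is at or above 1460 normalized counts in the 8 libraries of transduced WT and nowhere above 22.3 in the rest.

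Among matrix genes known as targets of ETS1, 3 of 6 were tested. Of these, 1 rose with TGF-β, 1 fell in KO1, 2 fell in KO2 and 1 fell in WT eGFP. The shares of all genes called there were 7.84%, 25.0%, 16.3% and 12.7%. The gelatinase MMP9 was at 1126 and 722 in WT and 2364 and 2642 with TGF-β, at 0 in KO1, and at 7.45 and 4.93 in KO2, so it fell at least 324-fold in KO1 (adjusted p = 2.2e-07) and 149-fold in KO2 (adjusted p = 1.3e-05). WT eGFP, at 1.54 and 0, was also at least 300-fold below WT. The integrin subunit ITGB3, like ETS1, was highest with TGF-β, and rose there from 7320 to 18835 (log2 difference 1.37 ± 0.08, adjusted p = 4.1e-08) and in the rescue clones against KO2 (1.04 ± 0.07, adjusted p = 3.3e-08), at the threshold of 1 without the first KO2 library.

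ELF3 and EHF were lower after TGF-β than in untreated WT, and neither met the thresholds in a KO clone in the fit used throughout, although each did in KO1 under another setting; the difference between TGF-β and KO was not tested. With TGF-β, 4 of the 10 members met the thresholds, ETV1 and ETV4 higher and ELF3 and EHF lower, where 7.84% of all genes did. With just the TGF-β and WT libraries in the fit, 0 members and 0 of all genes met them. ELF3 (ENSG00000163435, chromosome 1, 202007945 to 202017183, plus strand) was at 2584 and 3414 in WT and at 519 and 600 with TGF-β, a log2 difference of -2.41 ± 0.14. KO1 had 2085 and 1824, a difference from WT that met the thresholds with all libraries set to the same total (-1.02), and KO2, at 2914 and 2737, overlapped with WT. EHF (ENSG00000135373, chromosome 11, 34621093 to 34663288, plus strand) was at 102 and 110 in WT and 17.5 and 7.25 with TGF-β, a log2 difference of -3.11 ± 0.63. In KO1 it was at 281 and 312 and in KO2 at 115 and 131, both above WT, although neither difference (1.48 ± 0.63 and 0.21 ± 0.63) met the thresholds. EHF in KO1 did meet them with a pseudocount of 5 (1.44) or with just the KO1 and WT libraries in the fit (1.48). In bulk RNA, fewer cells that express a gene and less of its RNA per cell cannot be told apart.

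The windows before the start sites of both genes are shown because they were the members lower with TGF-β. Capitals again mark GGAA and TTCC. ELF3 is at chr1:202010337-202010586, and the first EHF entry at chr11:34624007-34624256, both on the plus strand of GRCh38.p14.
ELF3: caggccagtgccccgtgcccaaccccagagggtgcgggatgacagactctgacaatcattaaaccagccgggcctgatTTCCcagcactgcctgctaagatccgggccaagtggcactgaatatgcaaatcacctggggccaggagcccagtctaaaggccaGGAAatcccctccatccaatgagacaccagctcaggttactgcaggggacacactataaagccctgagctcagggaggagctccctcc
EHF: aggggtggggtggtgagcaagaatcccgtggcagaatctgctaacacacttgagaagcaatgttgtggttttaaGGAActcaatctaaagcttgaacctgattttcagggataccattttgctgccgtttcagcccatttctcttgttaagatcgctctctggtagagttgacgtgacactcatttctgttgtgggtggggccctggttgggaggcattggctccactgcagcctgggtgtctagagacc
The core occurred 2 times before ELF3 and 1 time before EHF, and neither window held CCGGAA or TTCCGG. The other EHF entry, at chr11:34632316-34632565, held no core.

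Other epithelial genes were counted beside ELF3 and EHF. Of 15 epithelial genes known to accompany them, 11 were tested. With TGF-β 1 rose and 1 fell, with a median log2 difference of -0.48, whereas in KO1 2 rose and 7 fell (median -2.50) and in KO2 2 rose and 6 fell (median -1.81). The shares of all genes called there were 7.84%, 25.0% and 16.3%. EPCAM fell from 2907 ± 203 (SD) in WT to 257 ± 54.8 in KO1 (log2 difference -3.51 ± 0.12, adjusted p = 5.7e-12) and 869 ± 44.4 in KO2 (-1.74 ± 0.12, adjusted p = 2.8e-08), and was at 1663 with TGF-β. ESRP2, a splicing factor of epithelia, fell from 632 to 28.7 and 57.0 (adjusted p = 4.6e-08 and 1.6e-06) and was at 487 with TGF-β. LCN2, a secreted lipocalin of injured tubules, instead rose in both clones (limma, adjusted p = 7.0e-07 in KO1 and 6.5e-07 in KO2). It went from 0 and 0.940 in WT to 70.6 and 121 in KO1, 123 and 112 in KO2 and 147 and 94.5 in WT eGFP. Of the 6 fibroblast genes, DCN, LUM and PDGFRA were called higher in both clones, the call of LUM in KO2 being lost without the second WT library (5.19). COL1A1, COL1A2 and PDGFRB were not called in either, and COL1A1 was at 11919 and 532 in the 2 WT libraries, 1042 and 815 in KO1 and 3751 and 3520 in KO2. With TGF-β, DCN, COL1A1 and PDGFRA were called higher. The 6 summed to 47800 and 46400 with TGF-β, where COL1A1 was the most abundant, to 236000 and 223000 in KO1 and to 103000 and 98900 in KO2, where DCN was, and none of the 6 was at 0 in both libraries of any group. Their part in the ETS values was not tested.

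Against KO2, 4 members met the thresholds in the rescue clones (FLI1 higher, and ETV1, ELF3 and EHF lower), where 17.5% of all genes did, and against WT eGFP, in the same serum, 3 did (FLI1 higher, and ELF3 and EHF lower), where 13.1% of all genes did. ELF3 was at 1471 and 1143 in Rescue1 and 1129 and 1122 in Rescue2, below KO2 by a log2 difference of -1.22 ± 0.12 (short of the threshold at -0.92 with the same total in all libraries and at -0.69 against KO1 in place of KO2) and below WT eGFP, at 3112 and 3287, by -1.40 ± 0.12. EHF was at 1.35 and 5.13 in Rescue1 and at 0 and 1.44 in Rescue2, and 3 of these 4 libraries were under their floor. WT eGFP had 23.3 and 19.8. The fitted log2 differences, -5.66 ± 0.55 from KO2 and -3.20 ± 0.55 from WT eGFP, depend on the pseudocount at such levels. The level of EHF in the 4 rescue libraries was thus below that of every WT and KO library. Of the 11 tested epithelial genes, 1 was higher and 4 lower than in KO2 (median log2 difference -0.21, beside -0.03 over all genes), and 0 were higher and 3 lower than in WT eGFP (median -0.92, beside 0.00). ESRP2 was the one higher than in KO2, at 123 to 177 against 55.2 and 58.7 (log2 difference 1.31 ± 0.29, adjusted p = 0.00238), and was lower than in WT eGFP (-1.13 ± 0.29, adjusted p = 0.00793), though short of the threshold without the second eGFP library (-0.81). CLDN4, an epithelial claudin, was lower than in both, falling to 9.91 to 33.1 from 499 and 396 in KO2 (log2 difference -4.18 ± 0.29, adjusted p = 3.9e-08), while the epithelial keratin KRT8 was at 22164 to 25190 in the rescue clones against 10534 and 9784 in KO2.

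**Figure D4:**
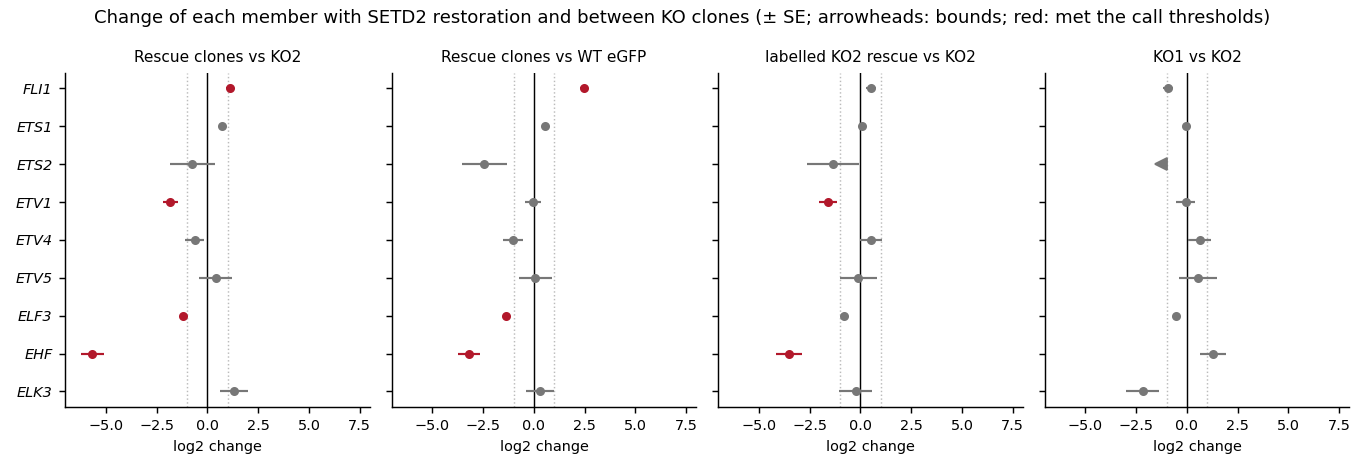
Log2 change of each tested member (horizontal axes, ± SE) for the rescue clones against KO2 and against WT eGFP, for the libraries labelled KO2 rescue against KO2, and for KO1 against KO2. FLI1 lies to the right and ELF3 and EHF to the left in both comparisons of the rescue clones, and no member is red between KO1 and KO2.

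In the libraries labelled KO2 rescue, 2 members met the thresholds against KO2 (ETV1 and EHF, both lower), where 4.17% of all genes did. EHF was at 11.5 and 8.20 there, a log2 difference of -3.52 ± 0.63, and ELF3 was at 1597 and 1633, a difference of -0.81 ± 0.14. These libraries were in 2% serum as KO2 was.

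WT eGFP against untreated WT had 4 members past the thresholds, FLI1, ETV1 and ETV4 higher and EHF lower, where 12.7% of all genes were. EHF was at 23.3 and 19.8 against 102 and 110, a log2 difference of -2.25 ± 0.63 that no longer met the thresholds without any 1 of the 4 libraries (-2.36 to -2.14), and ELF3 overlapped between the groups.

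Between the KO clones, limma called 0 of the members, where 6.97% of all genes were called. At an unadjusted p under 0.05 the count was 4 of the 9 tested, where 29.4% of all genes were under it. FLI1 was 1.86-fold lower in KO1 than in KO2 with no overlap, at a log2 difference of -0.94 ± 0.24. Without the first KO1 library 3 members would be called there, FLI1 (-1.32), ETV5 (2.48) and ELK3 (-3.64).

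The ectopic factors were compared with eGFP to ask whether any of them moved the ETS genes. With SOX2, OCT2 and PRRX1, limma called 0 members each, where 0.0206%, 0.0343% and 0.0411% of all genes were called, and 1, 0 and 1 of the 9 had an unadjusted p under 0.05, where 6.76%, 7.03% and 4.61% of all genes did. ETV4 showed the widest gaps, at 89.8 and 137 with SOX2 and 54.9 and 152 with PRRX1 against 295 and 233 with eGFP, with log2 differences of -1.23 ± 0.55 and -1.51 ± 0.55. FLI1 differed from eGFP by 0.51 ± 0.24 with SOX2, 0.08 ± 0.24 with OCT2 and 0.19 ± 0.24 with PRRX1.

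ETS2 and ELK3 were low throughout. ETS2 (ENSG00000157557, a relative of ETS1) lay between 0 and 79.6 over the 22 libraries with a median of 6.85, and met the thresholds in none of the 11 comparisons. Single libraries decided that: without the first WT library, for example, KO1 against WT was at -3.78 and met them. WT had 0 and 12.7, KO1 had 0 in both libraries, and WT eGFP had 79.6 and 6.29. ELK3 (ENSG00000111145), a ternary complex factor that acts with SRF, lay between 0 and 43.1. It was at 12.3 and 15.8 in WT and 6.54 and 0 in KO1, a log2 difference of -2.45 ± 0.80 that met the thresholds but rests on few reads and no longer met them without either WT library (-2.62 and -2.27) or without the second KO1 library (-0.99).

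The rest of the ETS family was used as the setting for the members. Of 18 other human ETS genes, 17 were measured and 11 were tested. FEV and SPIC were at 0 in all 22 libraries. In KO1 2 rose and 1 fell, in KO2 1 rose and 0 fell, in WT eGFP 3 rose and 0 fell, and with TGF-β limma called 0 of the 11. Of all genes tested, 25.0%, 16.3%, 12.7% and 7.84% were called in those comparisons. The median log2 differences of the 11 were 0.10, -0.08, 0.16 and 0.02. ETV6, a repressor of the family, was at 1310 and 1281 in WT and rose to 2650 and 3269 in KO1 (log2 difference 1.18 ± 0.08, adjusted p = 2.9e-08, and 0.77, short of the threshold, with all libraries set to the same total) and to 3017 and 2773 in WT eGFP (1.16 ± 0.08, adjusted p = 1.6e-07). KO2, at 2514 and 2581, differed by 0.97 ± 0.08 and was short of the threshold of 1. ELF1 was at 103 and 268 in WT and rose in KO1 (1.51 ± 0.35, adjusted p = 0.00285), KO2 (1.08 ± 0.35, adjusted p = 0.0302, lost without either KO2 library at 1.05 and 1.11) and WT eGFP (1.34 ± 0.35, adjusted p = 0.0103), and the call of WT eGFP was lost without the second eGFP library (1.07). Without the first WT library these differences were 0.83, 0.39 and 0.65 and none was called. ELF4 fell in KO1 from 1787 and 2281 to 1033 and 981 (adjusted p = 1.6e-06), just past the threshold of 1, and was short of it without the second WT library (-0.83) or the second KO1 library (-0.97). ETV3 rose in WT eGFP from 8.21 and 5.42 to 66.5 and 50.9 (2.94 ± 0.69, adjusted p = 0.0054) and was lower in the rescue clones than in WT eGFP (-2.28 ± 0.60, adjusted p = 0.00992), where the call was lost without the first eGFP library (-2.09). The broadly expressed GABPA stayed between 436 and 681 in all 22 libraries.

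**Figure D5:**
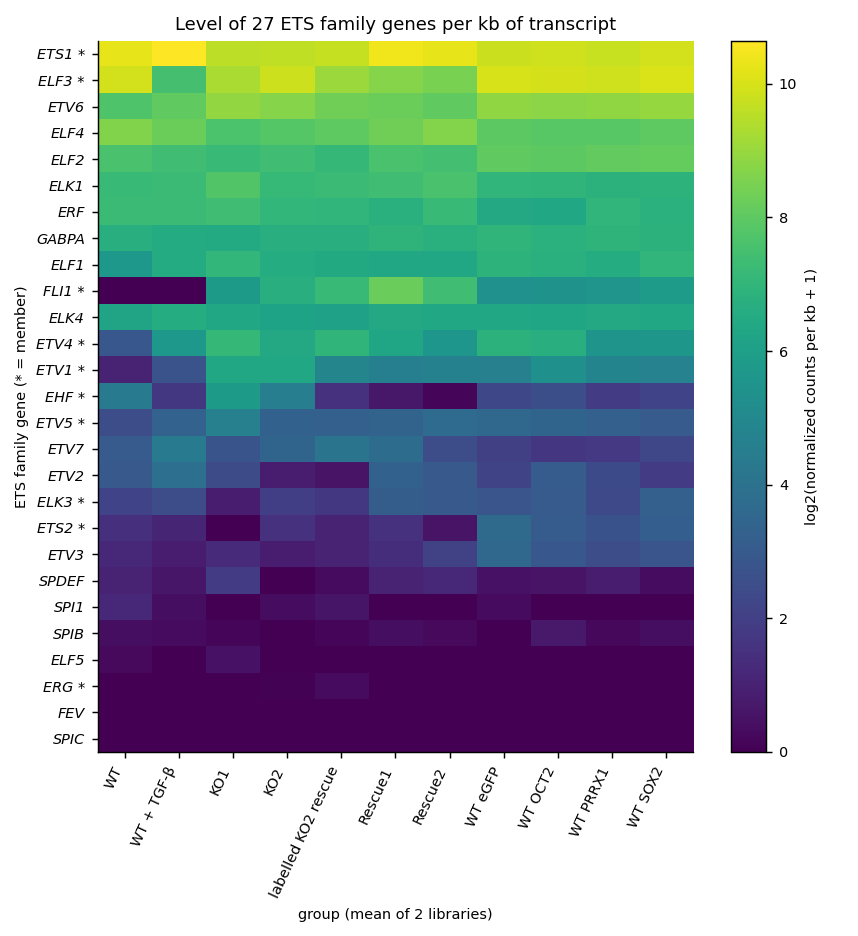
Colour gives the group mean of each measured ETS gene as log2(normalized counts per kb of transcript + 1), with genes ordered by their mean over the 11 groups and members marked by an asterisk. ETS1 and ELF3 are at the top and ERG, FEV and SPIC at the bottom, and FLI1 is at 0 in the 2 WT columns on the left.

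The nearest protein-coding genes outside the loci of the other members were looked at last. Genes that overlap a member, DHX8 with ETV4 and DGKG with ETV5, are given with that member. The gaps ran from 1.8 kb for RNPEP to 1460 kb for KIRREL3. Next to ERG, the channel gene KCNJ15 had a mean of 207 in WT libraries, 32.1 in KO1, 665 after TGF-β and 799 in WT eGFP, while ERG was at 0 in all of these. ELF5, the epithelial ETS gene beside EHF, had a mean of 0.439 in WT and 0.979 in KO1, and RNPEP, next to ELF3, had a mean of 145 in WT and of 101 after TGF-β (log2 difference -0.50, adjusted p = 0.22). DGKB, next to ETV1 on the side of higher coordinates, was at or below 8.42 in each of the group means examined. CDK17, 8.44 kb from ELK3, rose from a mean of 248 in WT to 498 in KO1 (adjusted p = 1.5e-05), to 504 in KO2 (log2 difference 1.02, adjusted p = 2e-05) and in WT eGFP (1.62, adjusted p = 3.5e-07), and without the first WT library the differences of the KO clones were 0.96 and 0.97, short of the threshold. CDK17 also missed it in KO1 without the first KO1 library (0.97) and in KO2 without the second KO2 library (0.93). APIP, on the other side of EHF, fell in WT eGFP (-2.71, adjusted p = 0.031), though not without either WT library (-2.62 and -2.80) or the first eGFP library (-0.88). KIRREL3, the nearest on its side of ETS1 but 1460 kb away, fell in KO1 (-4.63, adjusted p = 9.1e-05). PSMG1 beside ETS2 fell in both clones (-1.24 and -1.07), in KO2 not without the first WT library (-0.92) or the first KO2 library (-0.95), while TRA2B and CRYGS beside ETV5 and LTA4H beside ELK3 were not called with TGF-β, in KO1, in KO2 or in WT eGFP.

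ELF3 and EHF differed in which genes were most like them. Over the 11 group means those of ELF3 were ADAM10 (r = 0.966), a gene known by ENSG00000275723 only (r = 0.948), ESRRG (r = 0.946), WDR93 (r = 0.941) and FBXO32 (r = 0.928). ADAM10, a sheddase of the cell surface, had a mean of 6260 in WT and 2840 with TGF-β. Those of EHF were PGK1 (r = 0.974), FUZ (r = 0.972), LMAN2L (r = 0.942), VLDLR (r = 0.938) and C1S (r = 0.936). FUZ, a gene of cilium assembly, had a mean of 209 in WT libraries, 315 in KO1, 116 after TGF-β and 29.5 in Rescue2. Between the members themselves r was 0.48 for ELF3 and EHF, 0.84 for ETV1 and ETV4 and 0.83 for FLI1 and ETV1 over the same 11 means.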

How the data were processed

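RNA-seq of RPTEC was taken as 22 libraries in 11 groups of 2, grouped by their labels. The authors quantified reads of a stranded kit with salmon against GRCh38 transcripts (cDNA, Ensembl release 94) and normalized them in DESeq2. The submitters' processing notes name Salmon 1.9.0. The deposited values are on a log2 scale with 11.32 as the lowest in every library. They were read as variance-stabilized normalized counts and converted back by inverting that transformation.

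log2(normalized count + 1) was tested with limma 3.58.1 (moderated test with a trend, R 4.3.3) in 1 fit of all libraries, with Benjamini-Hochberg adjustment over 14585 genes, those reaching 10 normalized counts in 2 or more libraries. Genes were called where the adjusted p was below 0.05 and the log2 difference exceeded 1 in size. SE values come from that fit, which shares its estimate of spread, and SD values from 2 libraries. Folds compare group means of normalized counts. Where neither library of a group exceeded 3 reads, a bound against that floor replaces the fold; floors cover counting error only. On simulated data for KO1 against WT, over 14585 genes, 95% of 200 genes changed by 1.5 on the log2 scale were recovered. The simulation gave every gene the same relative spread beyond counting error, and the genes changed were not among those of lowest mean. That share therefore does not describe genes with few reads or unlike duplicates, such as ETV5, ETS2, ELK3 and EHF.

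The members, gene lists and tests were chosen with earlier results of these data known, and the list genes' tests support nothing independently. Counts of list genes stand against the share of all genes called. Against WT it was 25.0% in KO1, 16.3% in KO2, 7.84% with TGF-β and 12.7% in WT eGFP. For the rescue clones it was 17.5% against KO2 and 13.1% against WT eGFP. Genes named are the members, genes of the 6 lists, the 5 genes most correlated with FLI1, ELF3 and EHF, and the label checks. The nearest protein-coding genes and those that overlap a member are named as well. Of the listed genes, ETV3L, EGR1, JUNB and MMP1 were not analysed here, and single results of a few other genes named by these rules are not reported here. Symbols, positions and canonical transcript lengths come from GENCODE release 44, which matched 33878 of 36859 genes, and promoters from RefSeq on GRCh38.p14. The cDNA quantification assigns reads to strand-specific transcripts, but overlapping genes remain uncertain. These are ETV4 and DHX8 on opposite strands, and ETV5 and DGKG on the same strand, where strand does not separate reads.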

Additional observations from a re-analysis of the deposited data

Results flagged for a closer look

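Between the KO clones limma called 0 members, and 4 of the 9 tested had an unadjusted p under 0.05, as did 29.4% of all genes. Of the list genes reported here, 9 differed between KO1 and KO2 by limma's test of that difference (positive: higher in KO1). Among ERK outputs the log2 difference was -3.28 for DUSP4, 1.22 for SPRY4, 1.09 for PHLDA1, 1.34 for CCND1 and 1.14 for FOSL1. MMP9 differed by -2.82 and CD34 by -1.96. Among epithelial genes, EPCAM differed by -1.77 and ESRP2 by -1.09. Leaving out 1 library at a time ended the call of DUSP4 (-3.48 to -2.83), MMP9 (-3.08 to -2.57), CD34 (-1.86 and -1.80), ESRP2 (-1.13 to -0.48), FOSL1 (0.93 without the second KO1 library) and SPRY4 (1.05 without the second KO2 library). PHLDA1 was short of the threshold with the same total (0.91) and after quantile normalization (0.87).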

How the results depend on the processing

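Across the alternatives the log2 differences of the members were recomputed 1317 times. None of the called ones changed sign, 1165 moved by less than 1 SD and 152 by more.

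Tested on the deposited log2 values as they stand, whose offset of 11.32 compresses low and middle counts by construction, 0 members were called in each comparison, against 4 in KO1, 3 in KO2, 4 with TGF-β, 4 and 3 for the rescue clones, 4 in WT eGFP and 2 in the libraries labelled KO2 rescue; 178, 94, 31, 62, 35, 36 and 35 of all genes were called in those comparisons and 23 between the KO clones. Fitted on just the libraries being compared, 0 members and 0 genes were called with TGF-β, 1 member in the libraries labelled KO2 rescue, and 1912 of all genes in KO1, 715 in WT eGFP and 1 between the KO clones, where fewer libraries estimate the spread. Setting all libraries to the same total put the median of all genes at -0.392 in KO1, -0.204 in KO2 and -0.199 with TGF-β, each from near 0, at -0.207 from -0.0303 between the KO clones, and at 0.256 from -0.0299 in the rescue clones against KO2. It then called FLI1 between the KO clones (1 member, -1.12), ETS1 (-1.04) and ELF3 (-1.02) in KO1 and ETS1 (1.01) in the rescue clones against KO2, where ELF3 (-0.92) was no longer called. ETV6 in KO1 (0.77) and ELF1 in KO2 (0.85) were lost as well. With KO1 in place of KO2, 3904 genes differed from the rescue clones in place of 2551. The difference of the rescue clones for DUSP4, called lower against KO2, was 0.49 against KO1, the 1 called difference among the other genes named here that changed sign.

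Without 1 library at a time, members called ranged from 3 to 4 with TGF-β, 3 to 5 in KO1, 0 to 3 between the KO clones, 1 to 2 in the libraries labelled KO2 rescue, 3 to 4 in WT eGFP and 3 to 4 for the rescue clones against WT eGFP. ETV1 with TGF-β (1.08) was lost without the first TGF-β library, ELK3 in KO1 without either WT library or the second KO1 library (-2.62 to -0.99), EHF in WT eGFP without any 1 of the 4 libraries (-2.36 to -2.14), and ETV1 in the libraries labelled KO2 rescue without either KO2 library or the second of those libraries (-1.72 to -1.24). All genes called ranged from 739 to 1308 with TGF-β and from 642 to 1745 between the KO clones. For SOX2, OCT2 and PRRX1 they ranged from 7 to 36, 3 to 37 and 7 to 41, were 16, 14 and 18 with no filter and 0 within the groups alone and on the deposited values, against 3, 5 and 6; SOX2 gave 7 with a pseudocount of 0.5 and 6 with the same total, and OCT2 and PRRX1 gave 3 with a mean of at least 50, as OCT2 did with a pseudocount of 5.

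Equal replicate numbers did not pair the samples, since the correlations of their deviations lay between -0.143 and 0.0955 over 55 pairs. With the replicate block, the members called were 4 in KO1, 3 in KO2 and 4 with TGF-β, and the count changed in none of the 11 comparisons. Depth limits ERG, ETS2, ELK3 and EHF in the rescue clones, where values are a few reads.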
